A study of Mus musculus with 6 samples.

Results

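The genes described here are the glucose transporter gene Slc2a1 and 9 genes of glycolytic enzymes: the hexokinases Hk1, Hk2 and Hk3, the phosphofructokinases Pfkl and Pfkp, and the lower glycolytic enzymes Pgk1, Pgam1, Eno1 and Pkm. They were taken by gene symbol from the authors' annotated expression table. All 10 listed symbols were found among 16111 genes, and all 10 passed the filter on low counts that left 11408 genes to test. Transcripts were compared between macrophages of wild-type mice and macrophages of mice deficient in Ahrr (AhRR-/-), with 3 libraries in each group, so the question was which of these transcripts differ when Ahrr is missing. Ahrr encodes the aryl hydrocarbon receptor repressor, which competes with AhR, the ligand-activated aryl hydrocarbon receptor, for their shared partner Arnt.

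Both groups were of the C57BL/6 RCC strain and came from fetal liver at the fetal stage E13.5. The cells of both genotypes had grown without a break over 5 weeks in RPMI medium with fetal calf serum and 2% GM-CSF, a growth factor for macrophages, and 5000000 non-adherent cells were collected for each RNA sample. The labels number the mice 1 to 3 within each genotype, and the p-values measure the spread between these samples. The labels name neither the deleted part of Ahrr nor a promoter that limits the deletion to some cells.

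Glycolysis splits glucose into pyruvate in the cytosol. Slc2a1 (GLUT1) brings glucose into the cell, hexokinase traps it as glucose 6-phosphate, phosphofructokinase makes the committed step, and the lower enzymes recover ATP on the way to pyruvate. Macrophages are known to raise glycolysis on inflammatory activation, where Slc2a1, Hk2 and Pkm are often studied.

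Of the 10 genes, Hk2, Pfkp and Pgam1 were higher in Ahrr-deficient macrophages, by 1.77-fold, 1.46-fold and 1.51-fold, and no gene of the group was lower. Thus 3 of 10 passed an adjusted p of 0.05 in edgeR's quasi-likelihood test, all 3 in the direction of higher expression, where 9.62% of all tested genes were called higher and 19.6% were called in either direction. The log2 fold change was above 0 for 9 of the 10, with a median of 0.25, beside a median of 0.01 over all tested genes, of which 50.9% lay above 0. The 3 called genes belong to 3 different steps of the pathway. One is a hexokinase, one a phosphofructokinase and one the phosphoglycerate mutase of lower glycolysis.

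The stretches of DNA before the transcription starts of these 3 genes are shown because AhR-Arnt dimers are known to bind sites with the core GCGTG and HIF-Arnt dimers sites with the core ACGTG. Each is the 250 bases upstream of the start given by RefSeq on GRCm38.p6, printed 5′ to 3′ on the strand of the gene. Capitals mark each match to GCGTG or ACGTG on either strand, so that a match on the other strand reads CACGC or CACGT. The Hk2 window lies at chr6:82774455-82774704 on the minus strand, that of Pfkp at chr13:6648772-6649021 on the minus strand and that of Pgam1 at chr19:41911621-41911870 on the plus strand.
Hk2: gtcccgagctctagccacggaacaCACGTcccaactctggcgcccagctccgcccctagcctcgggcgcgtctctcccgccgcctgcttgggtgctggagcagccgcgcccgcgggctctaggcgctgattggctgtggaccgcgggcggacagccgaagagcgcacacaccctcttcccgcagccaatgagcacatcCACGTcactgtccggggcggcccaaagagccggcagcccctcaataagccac
Pfkp: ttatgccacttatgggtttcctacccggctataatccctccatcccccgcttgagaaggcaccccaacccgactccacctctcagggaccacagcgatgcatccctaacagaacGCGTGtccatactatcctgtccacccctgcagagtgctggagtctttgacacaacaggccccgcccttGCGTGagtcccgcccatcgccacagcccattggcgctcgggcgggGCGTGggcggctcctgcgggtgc
Pgam1: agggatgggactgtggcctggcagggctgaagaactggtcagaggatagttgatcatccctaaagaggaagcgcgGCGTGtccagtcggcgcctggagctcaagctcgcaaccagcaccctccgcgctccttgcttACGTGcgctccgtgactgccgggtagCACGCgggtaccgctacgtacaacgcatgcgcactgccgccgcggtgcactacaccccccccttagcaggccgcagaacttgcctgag

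The Hk2 window held 2 matches to ACGTG, whose first bases lay 226 and 52 bases before the start, and none to GCGTG. The Pfkp window held 3 matches to GCGTG, at 136, 68 and 23 bases, and none to ACGTG. In the Pgam1 window there were 2 matches to GCGTG, at 175 and 88 bases, and 1 to ACGTG at 114 bases. The 10 genes have 14 such windows among 32851 windows of the same length in the RefSeq table. GCGTG was found in 8 of the 14 windows, which belong to Slc2a1, Hk1, Pfkl, Pfkp, Pgam1 and Eno1, and in 28.2% of all windows. A pair of the Eno1 windows overlap and hold the same matches, so the count of 8 includes that stretch more than once. ACGTG was found in 6 of the 14, those of Slc2a1, Hk2, Hk3, Pgk1, Pgam1 and Pkm, and in 16.6% of all windows. The E-box CACGTG, which contains ACGTG, was in none of the 14 and in 6.02% of all windows. Base composition differs between these sets, with a median GC content of 62.8% in the windows of the 10 genes and 52.4% over all windows. Genes called and genes not called both had matches, and a match describes letters only, not binding.

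Total counts per library ranged from 3556106 in Ahrr-deficient replicate 1 to 41668336 in Ahrr-deficient replicate 2. Values below are normalised CPM, that is counts per 1000000 counts of the library after scaling of its total by edgeR's TMM method. Ahrr itself (ENSMUSG00000021575.16, chr13:74211118-74292331) stood at 4.60, 4.74 and 5.21 CPM in wild-type replicates 1, 2 and 3 and at 2.23, 2.47 and 1.18 CPM in the Ahrr-deficient ones. Its transcript was thus lower in all 3 libraries labelled Ahrr-deficient but not absent, with a log2 fold change of -1.21 (adjusted p = 0.0151 in edgeR, SE 0.26). That call was lost without wild-type replicate 1 (-1.29, adjusted p = 0.0631) and without wild-type replicate 3 (-1.18, adjusted p = 0.0502). All 9 macrophage markers and all 8 markers of alveolar-type macrophages were in the table, which lists genes with at least 10 counts in all, while no mast cell, basophil, eosinophil or B cell marker was. Summed macrophage markers lay between 24410 and 26840 CPM in wild-type and between 14800 and 22620 CPM in Ahrr-deficient libraries, with Csf1r and Cd14 called lower. Summed alveolar-type markers lay between 36610 and 39950 CPM and between 33870 and 36560 CPM, with Itgax, Car4 and Pparg called higher and Ear1 lower. Lyz2 made up most of the macrophage sum, with means of 20404 CPM in wild-type and 14831 CPM in Ahrr-deficient libraries. Chil3 made up most of the alveolar-type sum, with means of 36532 and 33410 CPM, so the sums say little about the other markers. Only 2 of 8 neutrophil markers (at most 2.63 CPM summed), 2 of 7 erythroid (at most 0.823) and 1 of 4 hepatocyte markers (at most 0.835) were in the table. Of 4 megakaryocyte markers 2 were in the table, at 5.35 to 6.32 CPM summed in wild-type and 3.02 to 4.46 CPM in Ahrr-deficient libraries, with Itga2b called lower. The part of these marker differences in the values below was not tested, and in bulk RNA a change in RNA per cell and a change in the share of cells that express a gene cannot be told apart. Wild-type replicate 2 held 5.28% of its counts in an rRNA gene, CT010467.1, against at most 0.0679% in the others.

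**Figure D1:**
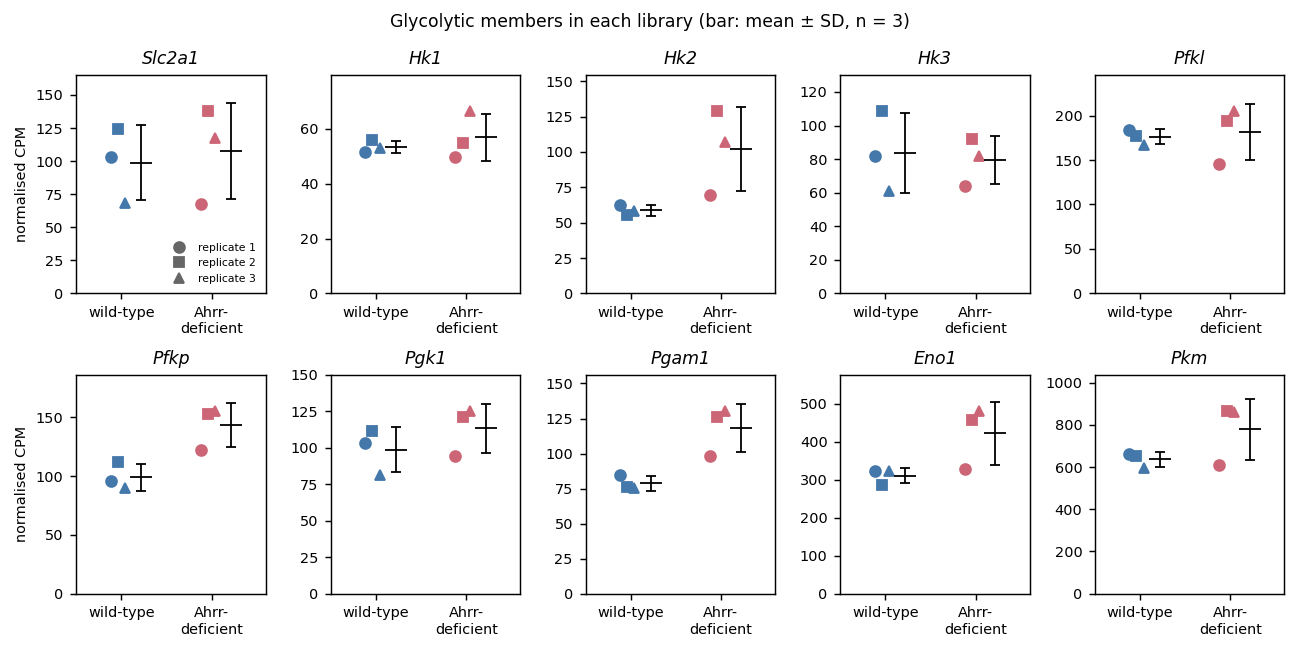
Normalised CPM (y axis, linear, from 0) of each of the 10 genes in each library, with wild-type in blue and Ahrr-deficient in red, markers by replicate number and bars for mean ± SD (n = 3). The groups are apart in Hk2, Pfkp, Pgam1 and Eno1, and Ahrr-deficient replicate 1 lies lowest of its group in each of them.

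Slc2a1 (ENSMUSG00000028645.11, chr4:119108711-119137983, plus strand), the glucose transporter, stood at 102.8, 124.6 and 68.4 CPM in wild-type replicates 1 to 3 and at 67.4, 137.9 and 117.5 CPM in Ahrr-deficient replicates 1 to 3. The groups overlapped over nearly their whole range. Means were 98.6 ± 28.3 and 107.6 ± 36.3 CPM (SD, n = 3), and the log2 fold change of 0.16 (SE 0.26) did not pass the test (edgeR adjusted p = 0.7003). The sign of this value turned without wild-type replicate 3 (-0.056) and without Ahrr-deficient replicate 2 (-0.065). Slc2a1 had the largest standard error of the 10 genes.

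Among the hexokinases, the rise was in Hk2 (ENSMUSG00000000628.10, chr6:82725025-82774454, minus strand), the inducible isozyme. Its level was 62.5, 55.3 and 58.2 CPM in the wild-type libraries and 69.9, 128.9 and 106.9 CPM in the Ahrr-deficient libraries. Every Ahrr-deficient library lay above every wild-type library, the closest pair being Ahrr-deficient replicate 1 and wild-type replicate 1. The means were 58.7 ± 3.65 and 101.9 ± 29.8 CPM (SD, n = 3), with a log2 fold change of 0.82 (adjusted p = 0.0174 in edgeR, SE 0.18). Hk2 was more variable among the Ahrr-deficient libraries, with a coefficient of variation of 29.3% against 6.22% among the wild-type ones. So were the other listed genes except Hk3 and Pgk1, for example Pkm (18.8% against 5.45%). The Hk2 call did not hold without wild-type replicate 1 (0.87, adjusted p = 0.0609), 2 (0.78, 0.0695) or 3 (0.80, 0.0606), or without Ahrr-deficient replicate 2 (0.60, 0.0577) or 3 (0.78, 0.0647). It held without Ahrr-deficient replicate 1, at 1.00 (adjusted p = 0.000292).

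Hk1 (ENSMUSG00000037012.18, chr10:62268855-62379908, minus strand), the widely expressed isozyme, stood at 51.6, 55.8 and 52.9 CPM in wild-type and at 49.8, 54.7 and 66.5 CPM in Ahrr-deficient libraries. Only Ahrr-deficient replicate 3 lay above the wild-type range, and the log2 fold change was 0.11 (adjusted p = 0.534 in edgeR, SE 0.11). Without that library it was -0.028. Hk3 (ENSMUSG00000025877.14, chr13:55005985-55021385, minus strand), the hexokinase known from myeloid cells, stood at 81.6, 108.7 and 61.0 CPM and at 63.8, 92.2 and 82.0 CPM. All 3 Ahrr-deficient libraries lay within the wild-type range, with a log2 fold change of -0.05 (adjusted p = 0.885, SE 0.20). The sign of this value turned without wild-type replicate 2 (0.16), without Ahrr-deficient replicate 1 (0.063) and with offsets for GC content (0.078).

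Ratios of isozymes within a library do not depend on how libraries are scaled. They were not corrected for GC content, which differs between the transcripts (51.9% in Hk2, 56.4% in Hk1 and 56.8% in Hk3). The mean log2 ratio of Hk2 to Hk1 counts was 0.13 ± 0.15 in wild-type and 0.80 ± 0.39 in Ahrr-deficient libraries (SD, n = 3), a difference of 0.67. For Hk3 to Hk2 it was 0.48 ± 0.46 and -0.33 ± 0.18, so Hk3 counts exceeded Hk2 counts in all 3 wild-type libraries and were below them in all 3 Ahrr-deficient ones. Neither ratio overlapped between the groups, and each exact two-sided permutation test over libraries gave p = 0.1, the smallest that 3 against 3 allows (0.133 after Benjamini-Hochberg adjustment over 4 ratios). The ratio of Hk3 to Hk1 overlapped, with means of 0.61 ± 0.38 and 0.47 ± 0.25 (exact permutation p = 0.7, adjusted 0.7). Counted per kb of the longest annotated transcript, Hk2 made up 22.03% ± 3.92 of the summed level of the 3 hexokinases in wild-type and 32.3% ± 3.68 in Ahrr-deficient libraries (SD, n = 3). The share of Hk3 was 52.2% ± 7.07 and 43.8% ± 1.41, and that of Hk1 was 25.8% ± 3.41 and 24.0% ± 3.68. Hk3 was thus the most abundant hexokinase transcript per length in both genotypes. With lengths of all exons together in place of the longest transcript, the Hk2 share was 25.8% and 37.2%.

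**Figure D2:**
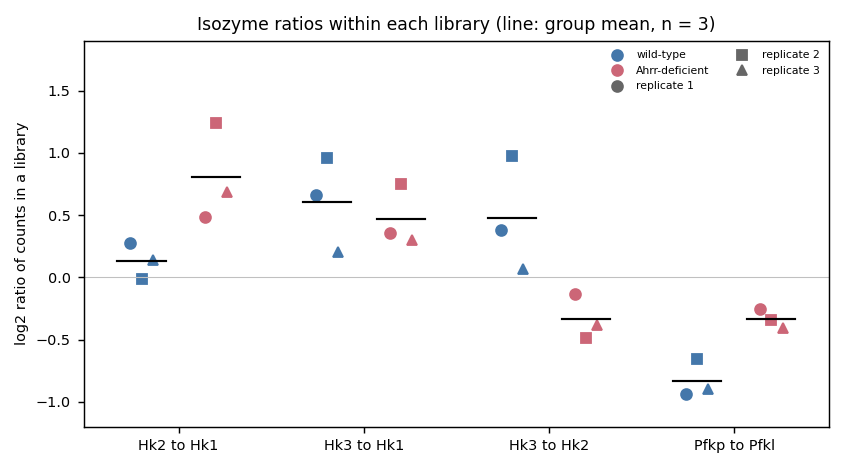
Log2 ratio of counts of 2 isozymes in the same library (y axis) for 4 ratios (x axis), with wild-type in blue, Ahrr-deficient in red, markers by replicate number and lines at the group means (n = 3). Hk2 to Hk1, Hk3 to Hk2 and Pfkp to Pfkl do not overlap between the groups, and Hk3 to Hk1 does.

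Pfkp (ENSMUSG00000021196.14, chr13:6579768-6648777, minus strand), the platelet-type phosphofructokinase, rose in Ahrr-deficient macrophages. It stood at 96.1, 111.8 and 89.6 CPM in the wild-type libraries and at 122.0, 152.7 and 155.1 CPM in the Ahrr-deficient libraries, with no overlap. Ahrr-deficient replicate 1 was again the lowest of its group and wild-type replicate 2 the highest of the other. Means were 99.2 ± 11.4 and 143.3 ± 18.5 CPM (SD, n = 3), with a log2 fold change of 0.54 (adjusted p = 0.0152 in edgeR, SE 0.12). The call was lost without wild-type replicate 1 (0.52, adjusted p = 0.0798) or 3 (0.47, 0.0624) and without Ahrr-deficient replicate 2 (0.49, 0.0553) or 3 (0.48, 0.0598). Exons of Pfkp overlap those of Pitrm1 on the opposite strand over 748 of 13401 bp, and Pitrm1, with 6368 counts against 12037 for Pfkp, had a log2 fold change of -0.05 (adjusted p = 0.740). The library kit does not mark strand, so reads from that stretch cannot be told apart.

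Pfkl (ENSMUSG00000020277.10, chr10:77986947-78010083, minus strand), the liver-type isozyme, stood at 184.3, 176.6 and 167.2 CPM in wild-type and at 145.4, 193.7 and 205.1 CPM in Ahrr-deficient libraries. Ahrr-deficient replicate 1 lay below all wild-type libraries and the other two above them, so the groups overlapped, with a log2 fold change of 0.05 (adjusted p = 0.806 in edgeR, SE 0.12). The sign turned without Ahrr-deficient replicate 3 (-0.052) and was -0.0028 without replicate 2. The mean log2 ratio of Pfkp to Pfkl was -0.83 ± 0.15 in wild-type and -0.33 ± 0.08 in Ahrr-deficient libraries (SD, n = 3). This difference of 0.50 was free of overlap (exact two-sided permutation p = 0.1, adjusted 0.133 over 4 ratios). The ratio was not corrected for GC content, which is 48.0% in Pfkp and 57.1% in Pfkl. Offsets for GC content gave log2 fold changes of 0.50 for Pfkp and 0.18 for Pfkl, closer together than without them. Per kb of transcript, Pfkp made up 17.8% ± 1.45 of the 3 phosphofructokinases in wild-type and 23.8% ± 0.77 in Ahrr-deficient libraries, Pfkl 73.6% ± 1.89 and 69.9% ± 1.79, and the muscle-type Pfkm, which is outside the 10 genes, the remaining 8.60% ± 0.56 and 6.30% ± 1.45 (SD, n = 3). Pfkl therefore stayed the most abundant phosphofructokinase transcript in every library at these annotated lengths, 3730 bp for Pfkl and 8681 bp for Pfkp. A shorter Pfkp form would raise its share, and the forms present in the cells were not measured.

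In lower glycolysis the call was Pgam1 (ENSMUSG00000011752.6, chr19:41911923-41918660, plus strand), the phosphoglycerate mutase that moves the phosphate of 3-phosphoglycerate to make 2-phosphoglycerate. It stood at 84.7, 76.2 and 75.3 CPM in the wild-type libraries and at 98.3, 125.9 and 130.2 CPM in the Ahrr-deficient libraries. All 3 Ahrr-deficient libraries lay above all wild-type libraries, replicate 1 being closest to them. Means were 78.7 ± 5.22 and 118.1 ± 17.3 CPM (SD, n = 3), with a log2 fold change of 0.59 (adjusted p = 0.00929 in edgeR, SE 0.11). Pgam1 was the one gene of the 10 that passed with each library left out in turn, at log2 fold changes from 0.51 to 0.68 and adjusted p from 0.000440 to 0.0483. The near-identical pseudogene Pgam1-ps2 held 28 counts over the 6 libraries, against 9977 for Pgam1.

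Eno1 (ENSMUSG00000063524.13, chr4:150236721-150248879, plus strand), the enolase of most tissues, acts on the next step. Its level was 322.4, 286.8 and 322.0 CPM in wild-type and was 326.9, 457.9 and 479.5 CPM in Ahrr-deficient libraries. The groups did not overlap, but Ahrr-deficient replicate 1 exceeded the highest wild-type library by little. Means were 310.4 ± 20.4 and 421.5 ± 82.6 CPM (SD, n = 3). The log2 fold change of 0.44 (SE 0.15) did not pass the threshold (adjusted p = 0.0615 in edgeR). It passed in DESeq2 (0.44, adjusted p = 0.0201), with offsets for GC content (0.58, 0.0124) and without Ahrr-deficient replicate 1 (0.59, 0.00210).

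Pkm (ENSMUSG00000032294.17, chr9:59656368-59679375, plus strand), the pyruvate kinase of the last step, was the most abundant of the 10 genes. It stood at 660.0, 651.8 and 596.2 CPM in wild-type and at 609.8, 864.1 and 861.9 CPM in Ahrr-deficient libraries. Ahrr-deficient replicates 2 and 3 lay above all wild-type libraries, whereas replicate 1 lay within their range. The log2 fold change was 0.29 (adjusted p = 0.189 in edgeR, SE 0.15), and it passed with offsets for GC content (0.44, adjusted p = 0.0364) and without Ahrr-deficient replicate 1 (0.43, 0.0104). Counts per gene do not separate the M1 and M2 splice forms of Pkm. Pgk1 (ENSMUSG00000062070.12, chrX:106187100-106203699, plus strand), the phosphoglycerate kinase that makes the first ATP of lower glycolysis, stood at 103.5, 111.5 and 81.5 CPM and at 94.1, 121.1 and 125.0 CPM. Its groups overlapped, with a log2 fold change of 0.21 (adjusted p = 0.306, SE 0.14). Near-identical copies of Eno1 and Pkm held 173 and 328 counts, or 0.468% and 0.462% of the counts of their parent genes, and 4 copies of Pgk1 are annotated, with no counts in the table.

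**Figure D3:**
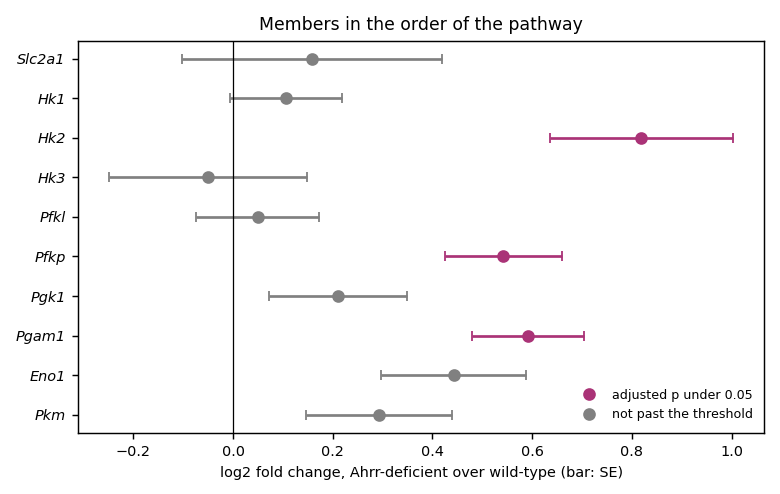
Log2 fold change of Ahrr-deficient over wild-type (x axis) with its SE for the 10 genes in pathway order (y axis), in purple where the edgeR adjusted p was under 0.05. Hk2, Pfkp and Pgam1 are past the threshold, and Hk3, at -0.05, is the one gene below 0.

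Groups did not overlap in 4 of the 10 genes, Hk2, Pfkp, Pgam1 and Eno1, all higher in the Ahrr-deficient libraries, where 19.2% of all tested genes were higher without overlap and 38.8% were without overlap in either direction. The same 4 had an unadjusted p under 0.05, which 35.8% of tested genes had. The libraries of the Ahrr-deficient group were not alike. Summed over the 10 genes, wild-type replicates 1 to 3 held 1750, 1759 and 1572 CPM, Ahrr-deficient replicate 1 held 1647 CPM, and Ahrr-deficient replicates 2 and 3 held 2329 and 2330 CPM. Replicate 1 was thus within the wild-type range in the sum, and it was also the shallowest library. With all libraries thinned to its total, the same 3 genes passed, at log2 fold changes of 0.63 for Hk2, 0.49 for Pfkp and 0.49 for Pgam1. Of the 10 genes, 5 passed without Ahrr-deficient replicate 1, where 16.0% of the genes tested were called higher. Without wild-type replicates 1, 2 and 3 there were 1, 2 and 1 genes past the threshold, where 2.86%, 3.72% and 4.17% of the genes tested were called higher. Without Ahrr-deficient replicates 2 and 3 there was 1 each time, where those shares were 4.10% and 5.04%. Thinning gave a share called higher of 5.61%. DESeq2 called 4 of the 10 higher, beside 8.51% of all genes tested, and GC offsets called 5 higher, beside 8.99%. The replicate block called 3 higher, beside 5.84%, and GC offsets with the block called 4 higher, beside 5.69%.

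Levels between genes were compared as CPM per kb of the longest annotated transcript. The order depends on these lengths, such as 8681 bp for Pfkp, and the forms present in the cells were not measured. In wild-type libraries the order was Pkm (261.5), Eno1 (153.1), Pgk1 (54.1), Pfkl (47.2), Pgam1 (44.4), Slc2a1 (30.2), Hk3 (26.0), Hk1 (12.5), Pfkp (11.4) and Hk2 (10.6). The ranges of Pgk1 and Pfkl, Pfkl and Pgam1, Slc2a1 and Hk3, Hk1 and Pfkp, and Pfkp and Hk2 overlapped, so these neighbours were not apart beyond their spread. In Ahrr-deficient libraries Pkm (320.1) and Eno1 (207.9) were again highest, followed by Pgam1 (66.5), Pgk1 (62.1), Pfkl (48.6), Slc2a1 (33.0), Hk3 (24.6), Hk2 (18.5), Pfkp (16.5) and Hk1 (13.3). There every neighbouring pair from Pgam1 down overlapped. By group means, Hk2 thus stood last of the 10 in wild-type and above Hk1 in the Ahrr-deficient group. Not every wild-type library had Hk2 last, since its range overlapped that of Pfkp. With lengths of all exons together, Hk1 had the last place in both groups.

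**Figure D4:**
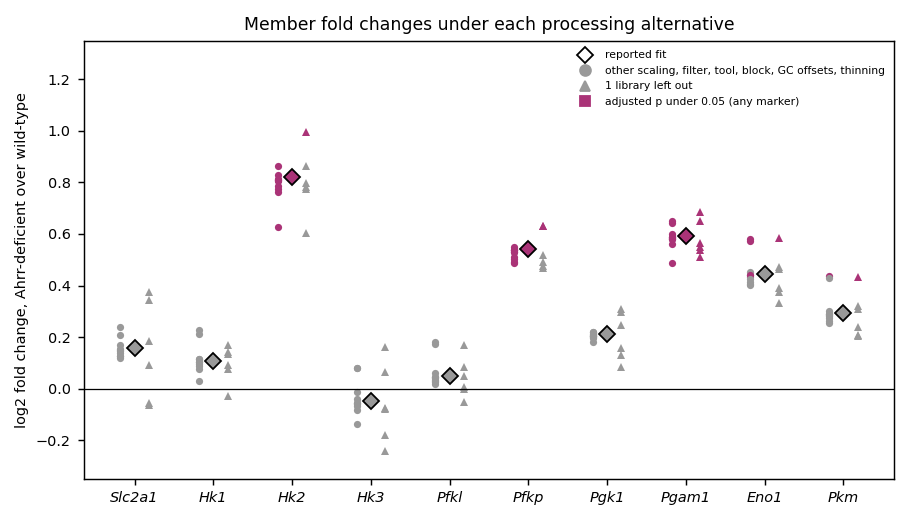
Log2 fold change of Ahrr-deficient over wild-type (y axis) for each of the 10 genes (x axis) in the reported test (diamonds), under other scaling, filters, tools, block, GC offsets or thinning (circles) and with 1 library left out (triangles), in purple where the adjusted p was under 0.05. Pgam1 is purple throughout, whereas triangles of Hk2 and Pfkp include values that did not pass.

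The other genes of glucose metabolism were taken from 7 lists by role. Of 85 listed genes, 70 were in the table, 66 were tested and 24 passed (edgeR adjusted p under 0.05), 13 higher and 11 lower in Ahrr-deficient macrophages, where 19.6% of all tested genes passed. Among other hexose transporters, 0 of 3 tested passed at an adjusted p of 0.05 and their median log2 fold change was -0.21. Of 10 tested other glycolytic enzymes and isozymes, none rose and 1 fell, with a median of 0.11. That gene was Eno3, the muscle enolase, at 6.99 ± 1.34 CPM in wild-type and at 3.78 ± 1.14 CPM in Ahrr-deficient libraries (SD, n = 3), with a log2 fold change of -0.77 (adjusted p = 0.0411, SE 0.22). Eno3 passed in 1 of the 6 tests with a library left out, the one without Ahrr-deficient replicate 1, and its adjusted p in the others reached 0.138. Over all 16 alternatives it passed in 6. Gapdh and Ldha, 2 abundant glycolytic transcripts, were not called.

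Enzymes of fructose 2,6-bisphosphate, the activator of phosphofructokinase, moved in both directions, with 1 of 5 higher and 2 lower and a median log2 fold change of -0.25. Pfkfb3, which encodes a kinase that makes this activator, fell in Ahrr-deficient macrophages. It stood at 83.3, 104.4 and 80.2 CPM in wild-type and at 56.0, 44.7 and 46.5 CPM in Ahrr-deficient libraries, without overlap. The log2 difference was -0.88 (adjusted p = 0.00376 in edgeR, SE 0.13), and it passed in all 16 alternatives, at -0.97 to -0.76. Pfkfb4, a second such enzyme, fell with a log2 fold change of -0.42 (adjusted p = 0.0151, SE 0.09), and Tigar, a phosphatase that breaks the activator down, rose by 0.45 (adjusted p = 0.0383, SE 0.13). The Tigar call was lost when any 1 library other than Ahrr-deficient replicate 1 was left out (adjusted p up to 0.180). Pfkfb4 passed in 2 of the 6 such tests, those without Ahrr-deficient replicate 1 or 3, and its adjusted p reached 0.0718 in the others. Over all 16 alternatives Tigar passed in 8 and Pfkfb4 in 11. Phosphofructokinase itself thus had Pfkp higher and Pfkl within overlapping ranges, beside lower Pfkfb3 and Pfkfb4. The muscle-type isozyme Pfkm was lower without overlap but was not called (-0.39, SE 0.15, adjusted p = 0.0975 in edgeR).

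Of 16 tested genes for the fates of pyruvate and lactate, 4 rose and 3 fell, with a median log2 fold change of 0.24. The 3 that fell were pyruvate dehydrogenase kinases, which switch off entry of pyruvate into the mitochondrial cycle. A further kinase of this family, Pdk3, went the other way and was not called (0.25, SE 0.11, adjusted p = 0.1485 in edgeR). All its Ahrr-deficient libraries lay above all its wild-type libraries. Pdk4 had 50, 14 and 29 counts in wild-type and 1, 2 and 4 counts in Ahrr-deficient libraries, a ratio of the summed counts per library size that was 21.7-fold lower (95% exact interval 10.1 to 55.5, counting error only). Its fitted log2 fold change was -4.35 (adjusted p = 0.00297 in edgeR, SE 0.58). The size of that value moved with single libraries, to -2.91 without Ahrr-deficient replicate 2 and to -5.27 without Ahrr-deficient replicate 3, and it passed with each library left out. Pdk2 fell by 0.53 on the log2 scale (adjusted p = 0.0114, SE 0.11) and Pdk1 by 0.29 (adjusted p = 0.0490, SE 0.09). Among those that rose were Pdp1, a phosphatase that acts opposite to these kinases (0.61, SE 0.14, adjusted p = 0.0183), and Dlat and Dld, 2 subunits of the dehydrogenase complex (0.40 and 0.39, adjusted p = 0.0216 and 0.0125). Pdp1, Dlat and Pdk1 lost their calls when any 1 library other than Ahrr-deficient replicate 1 was left out (adjusted p up to 0.0803, 0.0906 and 0.197). Dld lost its call when any 1 wild-type library was left out (up to 0.0623), and Pdk2 lost its call without wild-type replicate 1 (0.0578). Over all 16 alternatives, Pdk2 passed in 13, Dld in 10, Dlat in 9, Pdp1 in 8 and Pdk1 in 7. Offsets for GC content ended the calls of Dld (0.26, adjusted p = 0.0819) and Pdp1 (0.0751), and thinning those of Dld (0.0549), Pdk2 (0.0740) and Pdk1 (0.243).

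In the pentose phosphate pathway 1 of 8 tested genes rose and 2 fell, with a median log2 fold change of -0.01. Rpe, an epimerase of its non-oxidative arm, rose by 0.54 (adjusted p = 0.00874 in edgeR, SE 0.10). H6pd, a glucose 6-phosphate dehydrogenase of the endoplasmic reticulum, fell by 0.56 (adjusted p = 0.00527, SE 0.09), and Pgls, the lactonase, fell by 0.34 (adjusted p = 0.0448, SE 0.10). Rpe and H6pd passed with each library left out, while Pgls passed without Ahrr-deficient replicate 1 and in no other such test (adjusted p up to 0.183). H6pd passed in all 16 alternatives, Rpe in 15 and Pgls in 7. The Rpe call was lost with GC offsets and the replicate block together (0.39, adjusted p = 0.0789), and that of Pgls with GC offsets alone (0.0883). Rpe shares 558 bp of exon with Kansl1l on the opposite strand.

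Of 12 tested genes of gluconeogenesis and glycogen, 4 rose and none fell, with a median of 0.18. Fbp1, fructose 1,6-bisphosphatase, which reverses the phosphofructokinase step, had 2, 1 and 0 counts in wild-type and 11, 73 and 28 counts in Ahrr-deficient libraries. The ratio of summed counts per library size was 22.9-fold (95% exact interval 7.62 to 113.0, counting error only), with a fitted log2 fold change of 4.54 (adjusted p = 0.00252 in edgeR, SE 0.58). Even so, the Fbp1 level of 2.50 ± 0.72 CPM in Ahrr-deficient libraries (SD, n = 3) was low. Ugp2, which makes UDP-glucose for glycogen, rose by 0.51 (adjusted p = 0.00945, SE 0.10), and the gene listed as Pgm2, a phosphoglucomutase, by 0.34 (adjusted p = 0.0245, SE 0.08). Ugp2 lost its call without wild-type replicate 1 (adjusted p = 0.0609) and Pgm2 without any 1 of the wild-type libraries or Ahrr-deficient replicate 3 (up to 0.119), whereas Fbp1 passed with each library left out. Ugp2 passed in 15 and Pgm2 in 10 of the 16 alternatives.

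The 12 tested regulators of glycolytic genes split into 3 higher and 3 lower, with a median log2 fold change of 0.13. Myc, a transcription factor known to act on many glycolytic genes, was at 26.8, 19.0 and 18.7 CPM in wild-type and at 71.8, 106.8 and 160.1 CPM in Ahrr-deficient libraries. Every Ahrr-deficient library was thus far above the wild-type range, with a log2 fold change of 2.38 (adjusted p = 0.00184 in edgeR, SE 0.27), and it passed in all 16 alternatives. Hif1a, the oxygen-regulated factor, rose by 0.46 (adjusted p = 0.0162, SE 0.10), whereas its relative Epas1 fell by 0.47 (adjusted p = 0.0343, SE 0.13). The prolyl hydroxylases that mark these factors for degradation moved apart, with Egln1 higher by 0.29 (adjusted p = 0.0347, SE 0.08) and Egln3 at a log2 fold change of -1.27 (adjusted p = 0.0192, SE 0.29). Txnip, an inhibitor of glucose uptake, fell by 0.44 (adjusted p = 0.0432, SE 0.13). Without wild-type replicate 1 the calls of Hif1a, Epas1, Egln1, Egln3 and Txnip were all lost (adjusted p from 0.0596 to 0.137). Hif1a was also lost without wild-type replicate 2 (0.0668), Egln3 without Ahrr-deficient replicate 2 (0.0762) or 3 (0.0590), and Epas1 without wild-type replicate 2 (0.102) or Ahrr-deficient replicate 2 (0.108) or 3 (0.109). Egln1 and Txnip passed only without Ahrr-deficient replicate 1 (adjusted p up to 0.149 and 0.128 in the other 5 tests). Over all 16 alternatives Hif1a and Egln3 passed in 13 each, Epas1 and Txnip in 8 each and Egln1 in 7, and GC offsets ended the call of Epas1 (0.0653). Over all 7 lists the number called was 6 without wild-type replicate 1, and 9 and 11 without wild-type replicates 2 and 3. It was 13 and 11 without Ahrr-deficient replicates 2 and 3, and 37 without Ahrr-deficient replicate 1. The whole table moved too, with 694, 965 and 1107 genes called without wild-type replicates 1, 2 and 3. Without Ahrr-deficient replicates 1, 2 and 3 there were 3857, 948 and 1175 called. These tests covered 11407 to 11839 genes.

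**Figure D5:**
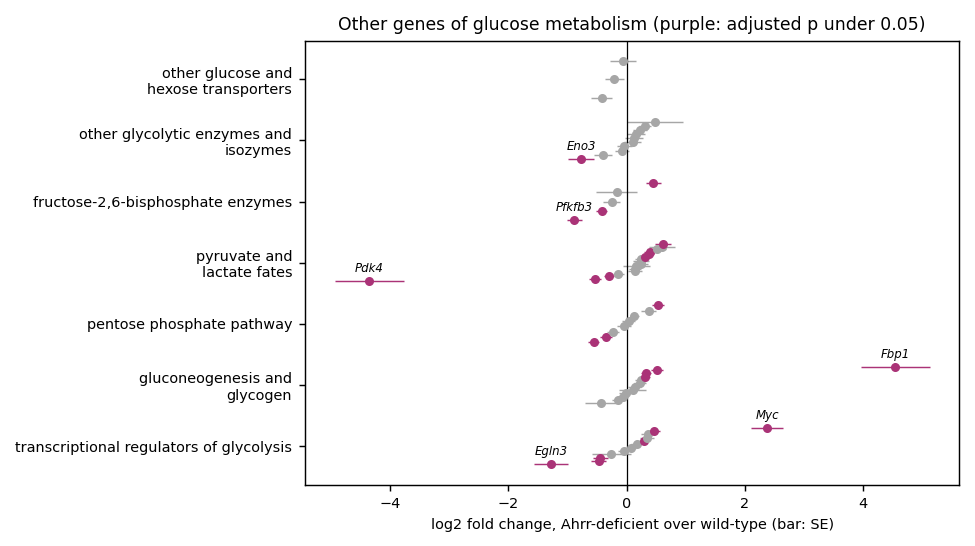
Log2 fold change of Ahrr-deficient over wild-type with its SE (x axis) for the 66 tested genes of 7 lists (y axis), in purple where the edgeR adjusted p was under 0.05. Purple points lie on both sides of 0 (13 higher, 11 lower), and Pdk4 at -4.35, Fbp1 at 4.54 and Myc at 2.38 lie farthest out.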

How the data were processed

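RNA sequencing was done on polyA RNA of 6 macrophage cultures. Per the labels' protocols, a TruSeq RNA v2 kit turned 100 ng of RNA into each library, and single ends of 75 bp were read. The submitters' processing notes name CASAVA 1.8.2, fastp 0.20.0, STAR 2.7.10b, SAMtools 1.16.1, R 4.3.1, DESeq2 1.40.2 and the build mm10, without roles. The counting program, its strand setting and the annotation are not given in the sources used here.

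The authors deposited raw counts for 53465 features without identifiers, and a normalised signal for 16111 annotated genes. Each deposited signal value came out as a whole number of reads (100% of values, tolerance 0.01) when multiplied by a median-of-ratios size factor. These reads equalled the raw counts of 16111 features, those whose 6 libraries sum to 10 or more counts, so symbols could be joined to counts. Features without a symbol took 0.0232% to 0.0511% of each library's counts and were kept in its total.

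Counts were tested with edgeR 4.0.16 (quasi-likelihood, two-sided, TMM, filterByExpr, genotype only) in R 4.3.3, with Benjamini-Hochberg adjustment over 11408 genes and a threshold of 0.05. Isozyme ratios were taken with 0.5 counts added and tested by exact permutation. The alternatives were RLE or upper-quartile scaling, dropping the filter, requiring a mean of 50 counts, limma-voom (limma 3.58.1), DESeq2 1.42.0, a block for the replicate number, GC offsets (lowess, span 0.3) with and without the block, thinning to the smallest total, and each library left out. For ratios, 5 added counts were also tried. The code was tested on simulated data.

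Positions and lengths are from GENCODE M21 (GRCm38), in which 16094 of 16111 identifiers were found, 14479 in the same version. The copies counted beside a gene share at least 150 bp at 95% identity with its transcripts. The genes and lists were chosen with earlier results of these data known. Named genes are the 10 listed ones, Ahrr, and in each list up to 3 that rose and 3 that fell most among those past the threshold. Also named are the 3 genes most correlated with each of the 2 listed genes that changed most, of which 1 is not reported here. Markers called in the table, Lyz2, Chil3, Gapdh, Ldha, Pfkm, Pdk3 and overlapping genes were named after their values were seen. Marker lists without a value in the text are those of dendritic cells, T and NK cells and endothelial or stromal cells, of which 2 of 5, 1 of 4 and 3 of 6 genes were in the table, at summed levels of at most 6.50, 0.185 and 1.10 CPM.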

Additional observations from a re-analysis of the deposited data

How the results depend on the processing

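With 1 library left out, 694 to 3857 genes of the whole table, 1 to 5 of the 10 glycolytic genes and 6 to 37 genes of the pathway lists were called, against 2232, 3 and 24. Offsets for GC content called 2042 genes, 5 of the 10 and 19 of the lists. Thinning to the smallest total called 1232 genes and 12 of the lists. Over 16 alternatives, 136 of 160 values of the 10 genes held both their sign and their side of the threshold, 9 lost a call, 6 gained one and 9 changed sign. The sign changes were Slc2a1 (-0.056 without wild-type replicate 3, -0.065 without Ahrr-deficient replicate 2, range -0.065 to 0.37 over the libraries left out), Hk1 (-0.028 without Ahrr-deficient replicate 3, range -0.028 to 0.17), Pfkl (-0.0028 and -0.052 without Ahrr-deficient replicates 2 and 3, range -0.052 to 0.17) and Hk3 (range -0.24 to 0.16). Hk3 was at 0.16 without wild-type replicate 2, at 0.063 without Ahrr-deficient replicate 1, at 0.078 with GC offsets and at 0.081 with these and the block. None of these values passed the test. The Hk3 to Hk1 ratio difference became 0.038 without wild-type replicate 2, in the range of -0.34 to 0.038 over the libraries left out. The causes were not tested. For the 22 named genes of the lists, 244 of 348 values held sign and side, 104 lost the call and none changed sign. Ahrr was at -1.687 to -1.0001 with a library left out. Fbp1 and Pdk4 were not tested in 2 alternatives each and Ahrr in 1, since their counts were too low there.

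Replicate numbers 1 to 3 occur in both groups but come from different mice. Deviations from the group means correlated at -0.17, 0.07 and 0.13 between libraries of the same number, and not every library correlated best with its own number, so the numbers were not taken as pairs. With the replicate block, 1390 genes, 3 of the 10 and 12 of the lists were called. With the block and GC offsets the counts were 1310, 4 and 11.

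Depth limits low genes most: 3 counts correspond to 0.844 CPM in the shallowest library and to 0.072 CPM in the deepest. Reads carry no molecular identifiers, so intervals cover counting error only.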

Other observations

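Of 10024 other genes with a mean of at least 50 counts, those whose log2 CPM followed Hk2 most closely over the 6 libraries were Slc1a5, Rab3il1 and Rnf4, with Pearson r of 0.9996, 0.9985 and 0.9971. Slc1a5, a glutamine transporter, stood at 47.2, 42.1 and 45.1 CPM in wild-type and at 53.7, 103.4 and 83.7 CPM in Ahrr-deficient replicates 1 to 3. Its log2 fold change was 0.87 (adjusted p = 0.0170 in edgeR, SE 0.19). Rab3il1 was at a log2 fold change of 0.93 (adjusted p = 0.0130, SE 0.19), and Rnf4, a ubiquitin ligase, was at 0.20 (adjusted p = 0.0990, SE 0.08) and did not pass. The call of Slc1a5 was lost when any 1 library other than Ahrr-deficient replicate 1 was left out (adjusted p up to 0.0668), and that of Rab3il1 without wild-type replicate 1 (0.0560) or 2 (0.0525) or Ahrr-deficient replicate 3 (0.0509).

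Among the genes closest to Pgam1 were Med22 and Nfatc2, with r of 0.9956 and 0.9949. Nfatc2, a transcription factor, stood at 15.8, 13.9 and 14.1 CPM in wild-type and at 20.6, 27.0 and 27.1 CPM in Ahrr-deficient libraries. Its log2 fold change was 0.79 (adjusted p = 0.00560 in edgeR, SE 0.13), and it passed in all 16 alternatives. Med22, a Mediator subunit, was at 0.41 (adjusted p = 0.0245, SE 0.10) and lost its call when any 1 library other than Ahrr-deficient replicate 1 was left out (adjusted p up to 0.0915), and also with the replicate block (0.0704) and after thinning (0.160). These genes were chosen for their likeness over the same 6 libraries, which differ in genotype and depth, so the correlations are descriptions.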
